A study of Mus musculus with 3 samples.

Results

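The genes described here are the interleukin-1 (IL-1) family genes and receptors, chosen by symbol: the ligands Il1a, Il1b and Il18, the inhibitors Il1rn, Il1r2 and Il18bp, and the receptor chains Il1r1 and Il1rap. They are 8 of the 55536 annotated genes in the deposited gene tables, and all 8 symbols were found. The RNA came from the cytosolic fraction of C57BL/6J mouse bone marrow-derived macrophages, which are primary macrophages grown from marrow cells. All 3 libraries form 1 group, exposed to lipid A at 100 ng/ml for 50 min, and they are called libraries 1, 2 and 3 after their biological replicate numbers. Lipid A is the part of bacterial lipopolysaccharide that Toll-like receptor 4 recognises. Ribosomal RNA was depleted before sequencing. The labels give the sex and age of the mice as not collected and 1 donor label to all libraries, so separate animals and separate cultures cannot be told apart. No untreated sample and no nuclear fraction was analysed here, so every value below is a level and none is a response to lipid A or a share of a cell's whole RNA.

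IL-1α and IL-1β bind the same receptor chain, IL-1R1, which then recruits the accessory chain IL1RAP and starts a MyD88 and IRAK signalling cascade. The IL-1 receptor antagonist, encoded by Il1rn, occupies that receptor without signalling, and IL-1R2 is a decoy that binds ligand but lacks a signalling domain. IL-18 acts through its own receptor pair and is neutralised in solution by IL-18 binding protein. IL-1β and IL-18 are made as inactive precursors that caspase-1 cuts inside inflammasomes, and macrophages are a main source of both.

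Il1b and Il1a lie close together on chromosome 2, and the RefSeq promoter table (build GRCm38.p6) holds a window for each of the 8 genes, 11 windows in all. The bases before the start sites of the 2 agonists and of the 2 Il1rn starts are shown because these genes had the highest levels and because Il1rn has 2 start regions. Each sequence is the 250 bases before the start, 5′ to 3′ on the gene's strand, with TATAAA (the core of the TATA box) and TGANTCA (the AP-1 motif) in capitals.
Il1b, chr2:129371140-129371389, minus strand: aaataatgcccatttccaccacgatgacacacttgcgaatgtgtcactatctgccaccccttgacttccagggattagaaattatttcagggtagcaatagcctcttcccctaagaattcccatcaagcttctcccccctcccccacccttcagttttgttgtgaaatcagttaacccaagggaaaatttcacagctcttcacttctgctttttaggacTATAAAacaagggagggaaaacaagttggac
Il1a, chr2:129309973-129310222, minus strand: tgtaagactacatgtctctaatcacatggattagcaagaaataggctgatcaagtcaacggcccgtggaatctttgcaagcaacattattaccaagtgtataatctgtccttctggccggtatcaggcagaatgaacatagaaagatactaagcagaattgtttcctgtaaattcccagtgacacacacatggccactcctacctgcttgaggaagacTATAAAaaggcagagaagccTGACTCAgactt
Il1rn upstream start, chr2:24336610-24336859, plus strand: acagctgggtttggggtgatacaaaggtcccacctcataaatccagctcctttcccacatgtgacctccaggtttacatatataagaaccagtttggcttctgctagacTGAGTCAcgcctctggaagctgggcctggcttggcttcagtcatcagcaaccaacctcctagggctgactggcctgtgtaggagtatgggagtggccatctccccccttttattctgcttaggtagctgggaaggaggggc
Il1rn downstream start, chr2:24345041-24345290, plus strand: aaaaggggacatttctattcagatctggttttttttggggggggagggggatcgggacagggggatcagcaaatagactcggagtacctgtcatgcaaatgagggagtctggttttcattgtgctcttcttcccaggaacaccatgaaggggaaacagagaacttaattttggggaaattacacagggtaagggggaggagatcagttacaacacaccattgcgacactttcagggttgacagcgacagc
TATAAA on the gene strand began 31 bases before the Il1b start and 32 bases before the Il1a start. In the whole table of 32851 windows of 300 bases (250 before and 50 after the start), 13.6% held TATAAA on either strand, and 1.99% held it on the gene strand 20 to 40 bases before the start. On the other strand it was matched 175 bases before an Il18 start and 14 bases after a further Il1rn start. TGANTCA was matched 12 bases before the Il1a start and 141 bases before the upstream Il1rn start, against 7.81% of all windows, and its matches overlapped no TATAAA match. The kappaB consensus was matched in 1 window of the members, of Il1r1, against 8.46% of all windows. The downstream Il1rn sequence held none of these 3 motifs. Both strands were searched for each motif, and a match is a description of letters, not of a bound site.

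The other regulatory letters of cytokine mRNAs are the AU-rich pentamers ATTTA in the 3′ untranslated region, which are known as elements of unstable mRNAs. In the leading coding transcript of Il1b, 4 ATTTA were counted in a 3′ region of 459 bases, or 8.71 per kb. That density was above the density of 98.4% of 9044 protein-coding genes, those that reached 1 TPM in all 3 libraries and whose leading coding transcript has an annotated stop codon and 3′ region. Their median density was 1.27 per kb and their median 3′ region 932 bases, and 34.0% of them held 3 or more ATTTA. Il1a had 3 in 1101 bases (2.72 per kb), while Il1rn-201, the leading transcript of the antagonist, had 0 in 1306 bases. Another Il1rn transcript, Il1rn-204, runs 558 bases further at the 3′ end, and those bases were not searched. The 30 bases that hold most of the Il1b pentamers and a pair in Il1a are shown with ATTTA in capitals, written as DNA on the gene's strand.
Il1b, chr2:129364808-129364837, minus strand: caaccacttacctATTTATTTAtgtATTTA
Il1a, chr2:129300109-129300138, minus strand: attttatctatgtATTTAtaaatatATTTA
Il18 had 1 pentamer in 123 bases, which is 8.13 per kb and above 98.1% of these genes from a single pentamer. Il18bp had 3 in 861, Il1rap 8 in 2676, Il1r1 8 in 2808 and Il1r2 0 in 24 bases. Of the 9044 genes, 66.0% held at least 1 ATTTA, so holding one does not set these genes apart. The longer form TTATTTATT was found in 0 of the 8 genes and in 6.87% of the 9044.

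Gene expected counts (estimated reads per gene) summed to 33044910, 36769402 and 36522216 in libraries 1, 2 and 3, and a count of 0 allows up to 3 counts, or 0.0908, 0.0816 and 0.0821 CPM (counts scaled to library size). This limit and the Poisson intervals below cover counting error only. The macrophage markers were all present, with 7 of 7 reaching 1 TPM in every library (TPM is a length-corrected share of a library's RNA), as were 2 of 8 neutrophil markers, 1 of 6 T and NK cell markers (Cd4) and 0 of 18 markers of B, dendritic, mast, stromal, endothelial and epithelial cells. In the first of the 2 quantifications used here, TPM in library 2 was lower for most genes. The median gene was 0.48 higher on the log2 scale in library 1 than in library 2, and the difference of library 2 minus library 3 was -0.40, over 9570 genes. For that reason genes are compared with each other as ratios within a library, and libraries are compared on TMM-scaled log2 CPM. In these bulk libraries, fewer cells of a type and less RNA per cell cannot be told apart.

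Of the 8 genes, 6 reached 1 TPM in every library of the first quantification, against 41.4% of the 22028 protein-coding genes. In the second quantification Il1rap was below 1 TPM in each library, at 0.756, 0.356 and 0.312 TPM. Mean TPM was also lower there for each of the 8 genes, for example 275 for Il1b and 148 for Il1a. Levels below are from the first quantification unless the second is named. The ligands Il1b and Il1a were the highest, the soluble inhibitors Il1rn and Il18bp lay between them and the third ligand Il18, and the decoy and both receptor chains were the lowest. The median of the 8 mean levels was 17.1 TPM, against 0.197 TPM over all protein-coding genes. Together the 8 genes took 0.263% ± 0.0220 of all gene counts (SD, n = 3), and Il1a and Il1b supplied 91.3% ± 0.676 of that.

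**Figure D1:**
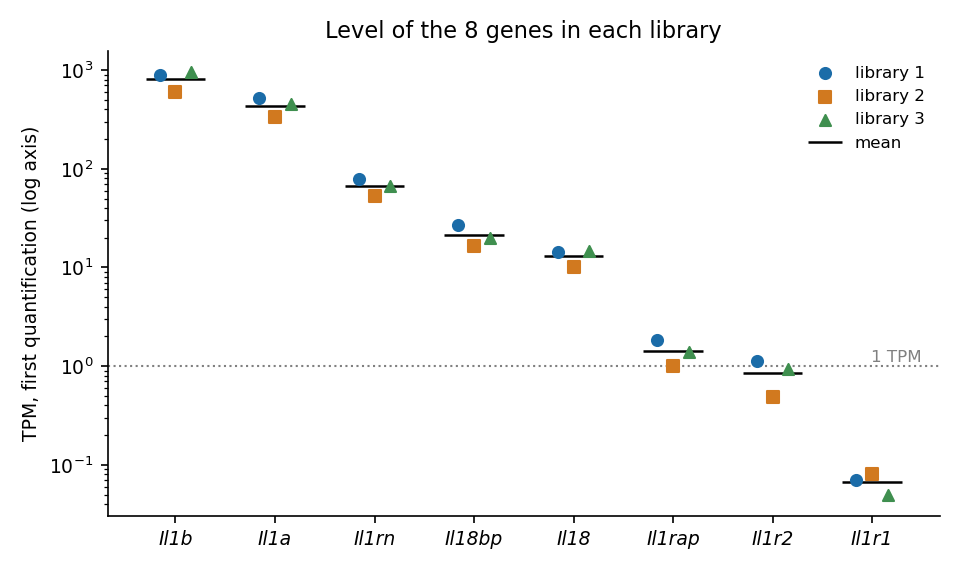
TPM of each gene in the first quantification of libraries 1, 2 and 3 (points, log axis) with the mean over the libraries (bar) and a dotted line at 1 TPM. Il1b lies between 600 and 960 TPM and Il1r1 between 0.05 and 0.08 TPM, and library 2 is the lowest for 7 of the 8 genes.

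Il1b (ENSMUSG00000027398.13, chr2:129364570-129371139 in mm10, minus strand), the inflammasome-dependent agonist, was at 898, 600 and 960 TPM in libraries 1, 2 and 3, with 42572, 42282 and 54671 expected counts. Its mean was 819 ± 193 TPM (SD, n = 3), which ranked 39 of the 22028 protein-coding genes. Il1a (ENSMUSG00000027399.1, chr2:129299610-129309972, minus strand), which is active also as an uncut precursor, was at 519, 336 and 449 TPM, a mean of 435 ± 92.0 TPM and rank 95. The genes are neighbours on the same strand, 54597 bases apart. Il1b was higher than Il1a in 3 of 3 libraries, with log2 ratios of Il1a to Il1b TPM of -0.79, -0.83 and -1.10, a mean of -0.91 ± 0.16 (SD, n = 3), so that Il1b stood 1.88-fold higher. The exact two-sided sign-flip test gave p = 0.25, the smallest p that 3 libraries allow, for this ratio and for those of Il1rn to Il1b, Il1rn to Il1a, Il1r2 to Il1r1 and Il18bp to Il18. The other ratios below carry no test. In counts not divided by length the same ratio was -0.26, since the Il1a gene's transcript is longer.

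Il18 (ENSMUSG00000039217.13, chr9:50554827-50581840, plus strand), the third ligand, was far below both at 14.3, 10.2 and 14.6 TPM. Its mean of 13.0 ± 2.45 TPM (SD, n = 3) ranked 3631, from 342 to 440 expected counts per library. Libraries 1 and 3 were nearly equal for Il18 and library 2 was the lowest, as for most genes on the TPM scale of the first quantification. In the second quantification library 3 was the lowest, with Il18 at 6.61, 3.96 and 3.48 TPM in libraries 1, 2 and 3.

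Il1rn (ENSMUSG00000026981.15, chr2:24336853-24351494, plus strand), the receptor antagonist, was at 79.6, 52.9 and 67.0 TPM, with 5977, 5875 and 5976 expected counts. Its mean was 66.5 ± 13.4 TPM (SD, n = 3) and its rank 747. The agonist Il1b exceeded the antagonist in each library, with log2 ratios of Il1rn to Il1b of -3.50, -3.50 and -3.84, a mean of -3.61 ± 0.20 or 12.2-fold, and -3.45 in the second quantification. The ratio of Il1rn to Il1a varied least of the 5 ratios computed, at -2.70, -2.67 and -2.75, a mean of -2.71 ± 0.04 or 6.53-fold in favour of Il1a. In the second quantification it was -2.53 ± 0.10, a difference larger than that spread but in the same direction.

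Il18bp (ENSMUSG00000070427.4, chr7:102014885-102018690, minus strand), the secreted binder of IL-18, was at 26.9, 16.4 and 20.1 TPM, a mean of 21.1 ± 5.35 TPM (SD, n = 3) and rank 2391. In contrast to the IL-1 pair, the inhibitor exceeded its ligand: the log2 ratio of Il18bp to Il18 was 0.91, 0.68 and 0.45, a mean of 0.68 ± 0.23 or 1.61-fold. The second quantification gave 0.69. The ratio in counts, 1.81, was larger because it is not divided by transcript length, and it compares reads rather than molecules.

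Il1rap (ENSMUSG00000022514.14, chr16:26581704-26730117, plus strand), the accessory chain shared by several receptors of the family, was at 1.85, 1.01 and 1.39 TPM, a mean of 1.42 ± 0.421 TPM (SD, n = 3) and rank 9032. Il1r2 (ENSMUSG00000026073.13, chr1:40074079-40125231, plus strand), the decoy, was at 1.12, 0.49 and 0.93 TPM, a mean of 0.847 ± 0.323 TPM and rank 9696. Its 57, 33 and 50 expected counts had 95% Poisson intervals of 43.2 to 73.9, 22.7 to 46.3 and 37.1 to 65.9, and library 2 was the lowest. Il1r1 (ENSMUSG00000026072.12, chr1:40225080-40317257, plus strand), the signalling receptor, was the lowest of the 8 at 0.07, 0.08 and 0.05 TPM, a mean of 0.0667 ± 0.0153 TPM and rank 11792. It had 16, 23 and 12 counts (intervals 9.15 to 26.0, 14.6 to 34.5 and 6.2 to 21), above the limit of 3 counts in each library.

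The decoy exceeded the signalling receptor in 3 of 3 libraries, at log2 ratios of 4.0, 2.61 and 4.22 and a mean of 3.61 ± 0.87 (SD, n = 3), or 12.2-fold. The size of this ratio was not well determined: the second quantification gave 2.50 ± 0.34 (5.67-fold), counts gave 1.47, and a pseudocount of 1 TPM gave 0.78. The 2 genes are neighbours, 99848 bases apart on the same strand. Neutrophils are known to carry much IL-1R2, and the 8 neutrophil markers summed to 35.3, 32.9 and 29.2 TPM, nearly all from S100a8 (11.7 to 12.3 TPM) and S100a9 (17.1 to 21.8 TPM). Ly6g was at 0 in each library, Cxcr2 at 0.05 to 0.11 TPM, Mpo at 0.07 to 0.28 TPM and Camp at 0.18 to 0.27 TPM. The part of such cells in the Il1r2 level was not tested. Stromal and endothelial cells are known to carry IL-1R1, and the 6 markers of stroma, endothelium and epithelium summed to 0.77, 0.38 and 0.41 TPM, with Pdgfra at 0 in each library, and their part in the Il1r1 level was not tested.

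The order of mean levels was Il1b, Il1a, Il1rn, Il18bp, Il18, Il1rap, Il1r2 and Il1r1. Each of the 7 neighbouring pairs had the same sign in 3 of 3 libraries in both quantifications, and each mean log2 ratio was more than 2 SD from 0 in the first. The smallest steps were Il18bp over Il18 (0.68 ± 0.23) and Il1rap over Il1r2 (0.78 ± 0.24, or 1.72-fold), and the latter was 0.55 in the second quantification. The largest step among the well-counted genes was Il18 over Il1rap, 3.23 ± 0.24 or 9.37-fold, which separated the ligands and soluble inhibitors from the membrane receptors. This step rests largely on the division by transcript length. Expected counts were 342, 381 and 440 for Il18 and 322, 258 and 280 for Il1rap in libraries 1, 2 and 3. Il1rn exceeded Il18bp by 1.66 ± 0.09, or 3.17-fold.

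**Figure D2:**
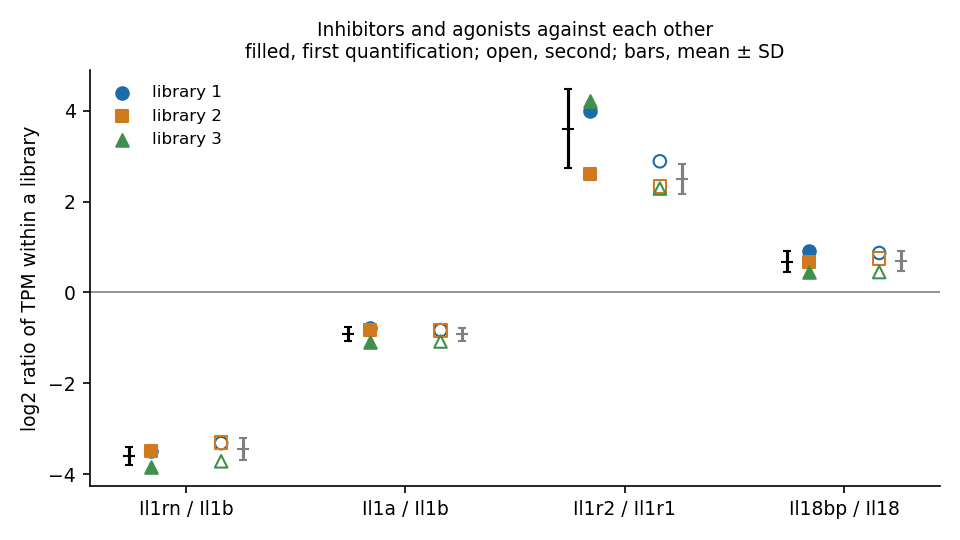
Log2 ratio of TPM within each library for 4 pairs (filled points, first quantification; open points, second; bars, mean ± SD over 3 libraries). Il1rn and Il1a lie below Il1b in every library, Il1r2 above Il1r1 and Il18bp above Il18, and the Il1r2 to Il1r1 ratio is the one that differs most between quantifications, 3.61 against 2.50.

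The gene levels hide several transcripts, of which 32 are annotated for the 8 genes and 7 were at 0 in each library of the first quantification. Il1a has 1 annotated transcript. Il1b-201, which encodes 269 residues, made up 97.8%, 97.1% and 98.9% of Il1b TPM, and Il1b-203, a retained-intron transcript, made up 1.80%, 2.44% and 0.547%. Il1b-203 was highest in library 2 and lowest in library 3 in the second quantification too, at 1.94%, 2.70% and 0.636%. The other non-coding transcript, Il1b-202, was at 0.359%, 0.430% and 0.530%, with its highest share in library 3. In the second quantification it was at 1.09%, 1.90% and 1.05%, with its highest share in library 2. Il1rap-201 (570 codons) made up 87.9% ± 0.668 of Il1rap and Il1rap-206 (360 codons) 9.39% ± 3.48 (SD, n = 3). The Il1rap-206 share came from only 9, 16 and 16 counts in libraries 1, 2 and 3.

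Il1rn has 2 start regions, 8457 bases apart. Il1rn-201, which starts downstream and has 178 codons, the length of the secreted antagonist's precursor, took 83.6%, 76.6% and 76.6% of Il1rn TPM. Il1rn-204, which starts upstream and has 159 codons, the length of an intracellular form, took 12.1%, 16.4% and 17.6%. The secreted form's transcript exceeded the intracellular form's by 2.38 ± 0.36 on the log2 scale (5.19-fold), and by 2.94 ± 0.26 (7.67-fold) in the second quantification, in 3 of 3 libraries of each. The RefSeq downstream start shown above lies 19 bases before the annotated start of Il1rn-201 and 3 bases after that of Il1rn-202 (162 codons), which took 1.71% ± 1.02 of Il1rn TPM (SD, n = 3). Il1rn-201 and Il1rn-204 also differ by 558 bases at the 3′ end, so reads there bear on their split as well as reads over the first exons.

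Il18bp showed a split that the files do not settle. Il18bp-201 made up 65.5%, 33.4% and 26.6% and Il18bp-203 made up 32.0%, 63.0% and 70.1%, so the leading transcript differed between library 1 and the other 2. In the second quantification Il18bp-201 led in all, at 75.6%, 56.5% and 56.5%. Both have the same coding region of 193 codons, and together they made up 97.5%, 96.3% and 96.7%, so the split concerns the untranslated regions. These differ by 42 bases at the 5′ end, by 27 bases at the start of the second exon and by 298 bases at the 3′ end. Their log2 ratio was -0.43 ± 1.29 in the first quantification and 1.05 ± 0.67 in the second (SD, n = 3).

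Il18 resembled it in part. The transcripts Il18-202 and Il18-204 share a coding region of 192 codons, and their annotated 5′ ends lie 9899 bases apart. Il18-202 is annotated from its start codon, and all its exons lie within those of Il18-204, so the difference does not show a second start site. Il18-202 averaged 40.6% in the first quantification and 15.9% in the second, and Il18-204 averaged 35.1% and 53.4%. Il18-203 skips a coding exon of Il18-204, and its reading frame ends early, after 78 codons. By contrast with the other 2, Il18-203 took 24.0%, 23.2% and 25.6% in the first and 27.8%, 28.1% and 29.7% in the second. The share of transcripts with the full 192 codons was therefore steady between libraries, at 75.8% ± 1.22 and 71.5% ± 1.01.

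**Figure D3:**
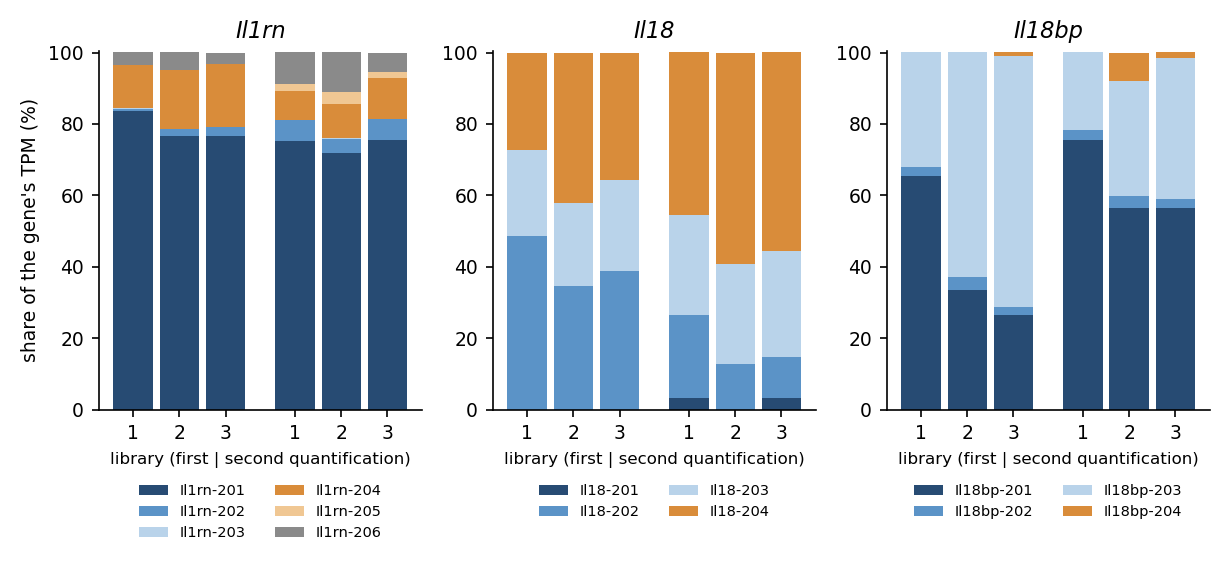
Share of each annotated transcript in its gene's TPM for Il1rn, Il18 and Il18bp, with libraries 1 to 3 of the first quantification on the left of each panel and of the second on the right. Il1rn-201 leads in all 6 columns, while the leading Il18 and Il18bp transcripts change with the library or the quantification.

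**Figure D4:**
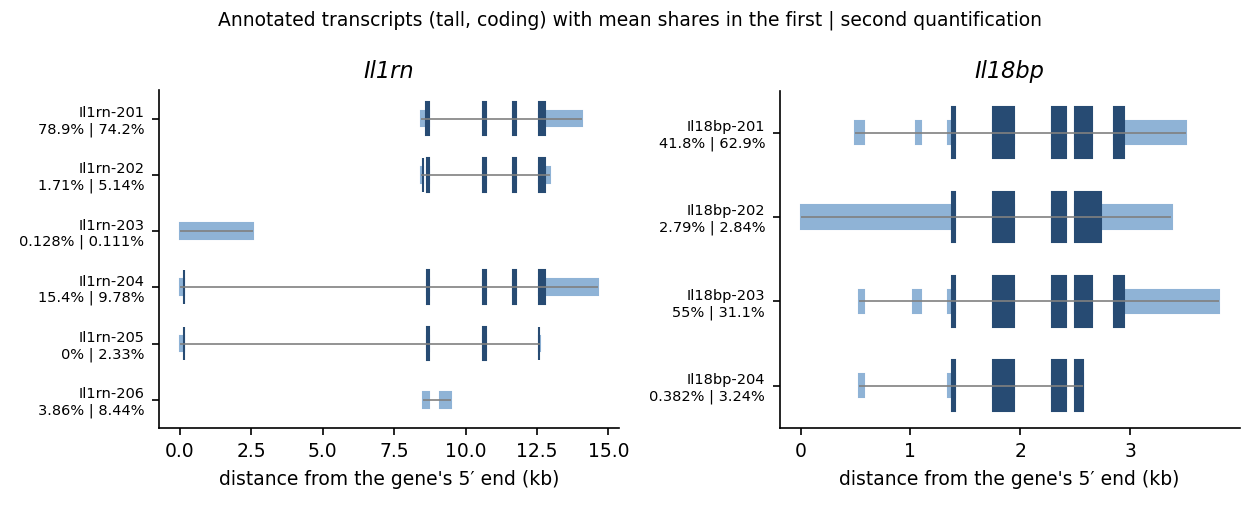
Annotated transcripts of Il1rn and Il18bp by distance from the gene's 5′ end in kb (thin boxes, exons; tall boxes, coding regions), with mean shares in the first and second quantification beside each name. The Il1rn-201 and Il1rn-204 starts lie 8457 bases apart, while Il18bp-201 and Il18bp-203 differ by 42 and 298 bases at their ends.

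For Il1r1 the transcript could not be told. Il1r1-201 took 100% of Il1r1 in library 1 and 0% in libraries 2 and 3, where Il1r1-202 took 100%, from 12 to 23 counts. The second quantification, with 34, 47 and 20 estimated counts, gave most to Il1r1-202 in library 1 (85.9%), to Il1r1-201 in library 2 (100%) and to the non-coding Il1r1-203 in library 3 (74.2%). Il1r2-201, the full decoy of 410 codons, took 100%, 61.2% and 87.1% of Il1r2, and Il1r2-204, annotated as a target of nonsense-mediated decay, took 38.8% in library 2 and 0% in the others. Il1r2-201 led in each library in the first quantification and on average in the second, at 71.3%. The leading transcript was the same in both quantifications for 5 of the 8 genes, the exceptions being Il1r1, Il18 and Il18bp.

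None of the 8 genes varied between libraries beyond the trend of genes of its level, against 203 of 12231 tested genes, or 1.66% (edgeR goodness of fit, adjusted p under 0.05). All 8 passed the filter on low counts, all had an adjusted p of 1.00, and 0 of 8 had an unadjusted p under 0.05, against 785 or 6.42% of the tested genes. A count of 0 of 8 is near that share and does not set the genes apart. The range of log2 CPM over the libraries was 0.16 for Il1a and Il1rn, 0.20 for Il18, 0.23 for Il18bp, 0.32 for Il1b and 0.43 for Il1rap, and it was widest for the low receptors Il1r2 (0.89) and Il1r1 (0.96). The median range was 0.27 over the 8 genes and 0.28 over all tested genes. On this scale library 1 was the highest for 5 of the 8, so that no library was the highest for all.

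**Figure D5:**
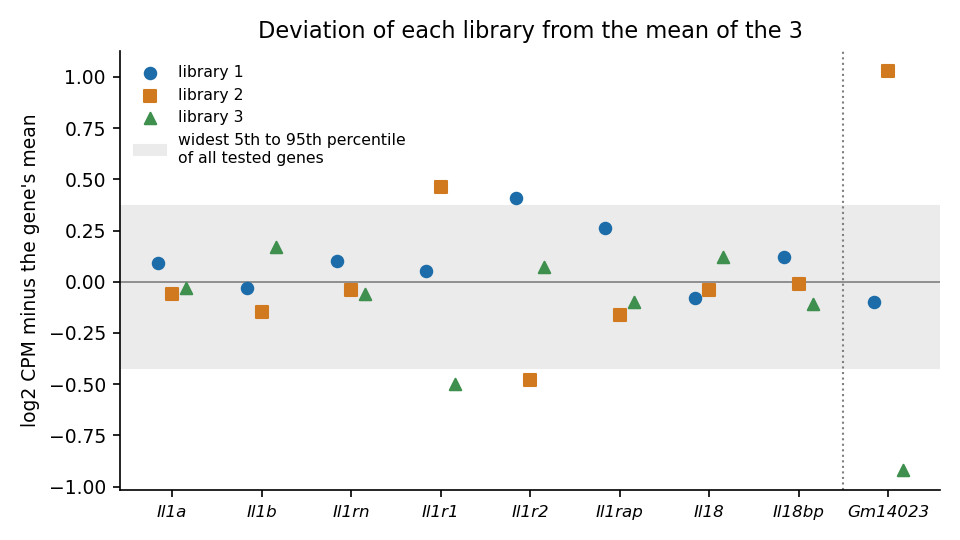
Log2 CPM of each library minus the gene's mean over the 3 libraries, for the 8 genes and, right of the dotted line, Gm14023, with the grey band giving the widest 5th to 95th percentile of all tested genes. Only Il1r1 and Il1r2 among the 8 reach beyond the band, while Gm14023 spans from 1.03 in library 2 to -0.92 in library 3.

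Genes that overlap the 8 were examined because the strand setting of the counting is not given in the sources used here, so reads of opposite strands may have been mixed. Gm14023, on the strand opposite to Il1a and sharing 222 of its 1974 exon bases, had 201, 474 and 127 counts and varied between libraries (log2 CPM 2.60, 3.73 and 1.78, edgeR adjusted p = 5.29e-05). Without library 2 the adjusted p was 1.00 and without library 3 it was 0.149. Its counts equalled 0.521%, 1.27% and 0.321% of those of Il1a, whose own range was 0.16. The nuclear RNA Malat1 had the same order of libraries (log2 CPM 11.06, 12.35 and 10.07), as had Neat1 (7.71, 9.15 and 7.40). Of the 8 genes only Il1r1 had this order, at log2 CPM -1.01, -0.61 and -1.57, from few counts with overlapping Poisson intervals. By share, the retained-intron transcript Il1b-203 and the non-coding Il1rn-203 and Il1rn-206 had this order in both quantifications. The non-coding Il1b-202 had it in the second but not in the first. The part of nuclear RNA in these values was not tested. Il1bos, opposite to Il1b and sharing 25 of its 1907 exon bases, had 38, 52 and 33 counts (edgeR adjusted p = 1.00). Numa1, opposite to Il18bp, had 5751 to 7298 counts and shares 80 exon bases with it, so some of the 1321 to 1384 counts of Il18bp are uncertain. Those 80 bases lie within the 298 bases at the 3′ end that Il18bp-203 has and Il18bp-201 lacks. The part of Numa1 reads in the split of these transcripts was not tested. Inside Il1r1, Gm38070 had 4, 20 and 4 counts with no shared exon base, against 16, 23 and 12 of Il1r1 itself. Gm20319 shares 552 exon bases with Il1rap and was at 0 in each library. Bco2 (66, 88 and 108 counts) and Tex12 (1 to 3) overlap the span of Il18 and Gm16894 (0 to 5) and Gm37347 (0 to 7) that of Il1r2, with no shared exon base.

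The rest of the pathway was read from 4 lists. Of the 6 other ligands and antagonists of the family (Il33, Il1f5, Il1f6, Il1f8, Il1f9 and Il1f10), 0 reached 1 TPM in each library and 5 were at 0 counts in each. Il1f9, which encodes IL-36γ, had 0.48, 0.21 and 0.29 TPM from 29, 19 and 21 counts. Of the 7 other receptors, 0 reached 1 TPM in each library and 2, Il1rapl1 and Il1rapl2, were at 0 counts in each. Over all protein-coding genes 41.4% reached 1 TPM in each library. Il1rl2, the IL-36 receptor chain, was at 0.61, 0.54 and 1.11 TPM and Sigirr, a negative regulator, at 0.81, 0.25 and 0.90 TPM. Il1rl1, the IL-33 receptor, was at 0.44, 0.07 and 0.07 TPM from 17, 20 and 18 counts, so its reads did not differ as its TPM did. Il18rap was at 0.25, 0.17 and 0.24 TPM, and Il18r1, the IL-18 binding chain, at 0, 0 and 0.05 TPM from 0, 0 and 4 counts. The receptor pair of IL-18 was thus below 1 TPM in each library, as was the signalling receptor of IL-1.

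Genes that act downstream of the receptors were present at moderate levels. Of the 16 signalling genes, which also serve Toll-like receptors, 15 reached 1 TPM in every library, against 41.4% of all protein-coding genes. Their median was 9.98 TPM. Those with the highest means were Tab2 (33.0 ± 8.29 TPM), an adaptor of the TAK1 kinase, Tollip (29.8 ± 5.20), Myd88 (29.3 ± 7.85), the receptor adaptor, and the kinase gene Irak2 (24.9 ± 5.16; SD, n = 3 for each). Peli3 was the exception at 0.44 to 0.56 TPM. None of the 16 varied between libraries in the edgeR test, against 1.66% of all tested genes. In that test 2 had an unadjusted p under 0.05, against 6.42% of all tested genes: Myd88, at log2 CPM 5.83, 6.21 and 6.50 (adjusted p = 0.390), and Peli1, an E3 ligase gene, at 6.11, 5.64 and 6.28 (adjusted p = 0.420).

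Of the 18 genes of precursor cutting and release, 15 reached 1 TPM in every library, against 41.4% of all protein-coding genes. Their median was 19.1 TPM. Ninj1, which encodes a protein of plasma membrane rupture, was at 145, 130 and 160 TPM, and Nlrp3, the inflammasome sensor, at 103, 95.4 and 132 TPM. Capn2, a calpain gene (calpains cut the IL-1α precursor), averaged 40.3 ± 4.21 TPM and Casp1, the protease that cuts IL-1β and IL-18, 34.5 ± 6.79 TPM (SD, n = 3). The 3 genes below 1 TPM were Prtn3, Elane and Ctsg, which encode the neutrophil serine proteases that can also cut IL-1 precursors, at 0.03 to 0.73 TPM. None of the 16 tested genes varied between libraries in the edgeR test, against 1.66% of all tested genes. In that test 1, Mefv, had an unadjusted p under 0.05, a share near the 6.42% of all tested genes (log2 CPM 2.89, 3.65 and 2.96, adjusted p = 0.657).

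The protein-coding genes nearest to each main member in log2(TPM + 1) over the 3 libraries were also listed. For Il1b these were Lamp1 (distance 0.15, mean 832 TPM), Rps28 (0.24, 750 TPM) and the chemokine gene Ccl4 (0.26, 859 TPM). For Il1a they were Sdcbp (0.10), Cstb (0.12) and Ms4a7 (0.18), and for Il1rn Fkbp8 (0.06), Csrp1 (0.06) and Hsbp1 (0.07). With 3 libraries of 1 group this likeness is mostly one of level.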

How the data were processed

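Gene and transcript tables of 3 libraries were used. The expected counts and TPM values in them were made by the authors against mm10 with GENCODE M21, per the notes deposited with each library. The first gene and transcript tables have the RSEM layout and the second transcript tables, with estimated counts and TPM, the kallisto layout. For the tools, their versions and the strand setting, nothing was given in the sources used here. Rows that name no gene (26345 of 81881) held 0.365%, 0.162% and 0.0200% of the counts in libraries 1, 2 and 3 and were left out.

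Expected counts were rounded and fitted in edgeR 4.0.16 (R 4.3.3) with 1 intercept, filterByExpr, TMM scaling and a trended dispersion, and the residual deviance of a gene was compared with a chi-square distribution (goodness of fit), with Benjamini-Hochberg adjustment over all 12231 tested genes. The script was tested on simulated data, in which genes with counts as low as those of Il1r1 and Il1r2 were not raised in any library. That run therefore does not show whether a change in such genes would be called. The p-values describe only how these samples differ from each other, and that spread may be technical. Ratios are within-library log2 TPM ratios without a pseudocount. Levels, shares and sequences carry no test.

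The members and lists were chosen with earlier results of these data known. Named were all members, the 4 genes of highest mean TPM in each list and any gene called in it, transcripts with a mean share of at least 10% in either quantification, the 3 nearest genes to Il1b, Il1a and Il1rn, and overlapping genes; other names were chosen after their values were seen. Promoters came from RefSeq (GRCm38.p6) and 3′ regions from GENCODE M21 transcripts. Alternatives were other scalings, filters, dispersions, thresholds, a pseudocount, the second quantification and each library left out.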

Additional observations from a re-analysis of the deposited data

How the results depend on the processing

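None of the 8 genes varied between libraries under any of the 8 alternatives run, and none of the 4 gene ratios (Il1rn to Il1b, Il1a to Il1b, Il1r2 to Il1r1, Il18bp to Il18) changed direction under theirs. The mean log2 ratios of transcripts changed sign between the first and second quantification for Il18bp-201 over Il18bp-203 (-0.43 and 1.05) and for Il18-202 over Il18-204 (0.22 and -1.81). The count of varying genes over all genes was 203, and 89 to 132 with 1 library left out. It was 200 to 298 under the other alternatives, of which every gene with a count gave 221 of 20709 and 1 common dispersion gave 298. Expected counts not divided by length gave log2 ratios of -2.96 for Il1rn to Il1b, -0.26 for Il1a to Il1b, 1.47 for Il1r2 to Il1r1 and 1.81 for Il18bp to Il18, because transcript length is then not removed. Il1r2 to Il1r1 was 2.50 in the second quantification and 0.78 with a pseudocount of 1 TPM, which exceeds the level of Il1r1. The leading transcript was the same in both quantifications for 5 of 8 genes. Of the 8 genes, 6 reached 0.5 TPM in every library of the first quantification and 5 reached 5 TPM. In the second quantification Il1rap did not reach 1 TPM in any library. No paired analysis was possible because the series holds 1 group. Depth limits Il1r1 (12 to 23 counts), whose transcripts were not separated, and Il1r2 (33 to 57 counts).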
